A study of Mus musculus with 3 samples.

Results

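Bone morphogenetic protein (Bmp) ligands and the secreted proteins that block them were measured in single cells of the cortical hem region of mouse embryos. The set held 8 genes, taken by Ensembl ID from the 27040 features that the feature lists of all 3 libraries shared: 6 ligand genes (Bmp2, Bmp4, Bmp5, Bmp6, Bmp7 and Gdf10) and 2 antagonist genes (Nog and Chrdl1). Their levels were compared between Gmnc-/- and wild-type embryos and between hem progenitors, choroid plexus cells, neurons and mesenchyme.

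Bmp ligands are secreted dimers of the transforming growth factor beta family that bind paired type I and type II receptors on the receiving cell, which then phosphorylate Smad proteins that enter the nucleus and switch on targets such as the Id and Msx genes. Noggin, the product of Nog, and chordin-like 1, the product of Chrdl1, bind ligands outside the cell and keep them off their receptors. The cortical hem is a signalling centre at the dorsal midline of the telencephalon that secretes Wnt and Bmp proteins; the choroid plexus epithelium forms beside it from tissue with high Bmp signalling, and Cajal-Retzius neurons arise from it. Gmnc encodes geminin coiled-coil domain containing, a nuclear protein known as an early regulator of the multiciliated cell fate.

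The Gmnc-/- library came from the pooled hem regions of 4 embryos at E12.5. The wild-type libraries came from 1 suspension that mixed the hem regions of 4 E11.5 embryos carrying PGKCre;Rosa26YFP with those of 4 E12.5 embryos carrying Wnt3aCre;Rosa26tdTomato. All were on a C57BL/6J background, and about 20000 cells were loaded per library for a target of 10000, with 10x Genomics 3′ chemistry that counts unique molecular identifiers (UMIs) near the 3′ end of each transcript. The reporters mark stage: PGKCre is a general driver, so YFP marks E11.5 cells broadly, while Wnt3aCre acts in the hem and its progeny, so tdTomato marks only part of the E12.5 cells. Because embryos were pooled and the wild-type libraries repeat 1 suspension, there was 1 sample per genotype and no test between genotypes was possible; the values from the wild-type libraries show technical spread only. Wild-type stage was also mixed where the Gmnc-/- stage was not.

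The libraries held 259403297 UMIs in Gmnc-/- and 148073906 and 139978761 in the wild-type replicates, and 12865, 8526 and 7477 cells were used, with median depths of 8615, 11609.5 and 12819 UMIs. The wild-type libraries shared 1914 barcodes, 18.4% of the barcodes of replicate 2; in 1887 of them 1 library had under 0.1 of the other's UMIs, and 31 shared barcodes were used as cells in both. Gmnc-/- shared 78 barcodes with wild-type replicate 1 and 42 with replicate 2. With all cells left out whose barcode stood in another library, the count of members past the rule below did not change in any comparison. The wild-type counts were made with Cell Ranger 3.1.0 and 28001 features and the Gmnc-/- counts with version 6.0.0 and 32285 features, per the file headers, so software and feature list cannot be told apart from genotype. Gmnc itself still gave 34.0 CPM (UMIs scaled to 1e6 per class and library) in Gmnc-/- hem progenitors, against 9.20 and 12.6 CPM in wild-type ones; the labels do not give the deleted part, so these UMIs check nothing.

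Clusters were made without any gene of the Bmp pathway lists and named from markers outside them. Hem progenitors (clusters led by Rspo1, Wnt3a and Dkk3) numbered 1812 in Gmnc-/- and 1596 and 1426 in the wild-type replicates. Choroid plexus cells (Ttr, Htr2c, Kcne2) numbered 1625, against 1336 and 1123, and a multiciliated cluster within them (Deup1, Rsph1, Pifo) had 0 Gmnc-/- cells, against 300 and 286. Neurons numbered 1034, against 958 and 887, in clusters of unequal make-up: a Stmn2 and Calb2 cluster held 1025 of the Gmnc-/- neurons but 269 and 255 of the wild-type ones, and a Lhx1 and Trp73 cluster held 9, against 689 and 632. Mesenchyme (Col3a1, Lum) was small, with 169 cells against 74 and 68. The summed erythroid markers, which these cells should lack, were higher in Gmnc-/-: 2432 against 276 and 236 CPM in hem progenitors, 5635 against 271 and 244 CPM in choroid plexus cells, and 12370 against 352 and 465 CPM in neurons, while in mesenchyme they were 4041 against 245 and 10320 CPM. The summed choroid plexus markers were 42440 CPM in Gmnc-/- choroid plexus cells, against 17700 and 19660 CPM in wild-type ones, and 1100 against 624 and 600 CPM in hem progenitors. The part of either marker sum in the results below was not tested.

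A gene counted as higher or lower where its CPM differed at least 2-fold from each wild-type library, the 95% Poisson intervals did not overlap, and the side with more reached 50 UMIs and 20 CPM. Brackets give 95% intervals, which cover counting error only. The 3′ counts were not scaled by transcript length, so levels are compared within a gene and not between genes.

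The upstream sequences of Bmp4 and Bmp5 are shown because these were the members with the most alike pattern across wild-type clusters (Pearson r = 0.949 over 21 clusters, described below). RefSeq windows on GRCm38.p6 were found for 4 of the 8 members (Bmp4, Bmp5, Bmp6 and Gdf10). Each sequence is given 5′ to 3′ on the gene's strand and ends at the base before the annotated first exon, at chr14:46390670-46390919 on the minus strand for Bmp4 and chr9:75775115-75775363 on the plus strand for Bmp5. Capitals mark E-box letters (CANNTG).
Bmp4: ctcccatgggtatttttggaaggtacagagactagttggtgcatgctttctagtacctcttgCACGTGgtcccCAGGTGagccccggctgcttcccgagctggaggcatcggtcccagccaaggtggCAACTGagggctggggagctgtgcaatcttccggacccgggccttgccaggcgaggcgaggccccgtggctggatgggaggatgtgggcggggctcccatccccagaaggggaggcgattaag
Bmp5: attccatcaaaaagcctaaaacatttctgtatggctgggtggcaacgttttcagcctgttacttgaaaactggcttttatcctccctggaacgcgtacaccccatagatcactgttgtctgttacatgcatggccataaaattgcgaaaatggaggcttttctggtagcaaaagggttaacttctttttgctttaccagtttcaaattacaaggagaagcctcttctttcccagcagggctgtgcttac
The upstream stretches differ in composition. G and C made up 63.2% of the 250 bases before the start of Bmp4, with 11 CpG dinucleotides, and 42.8% before Bmp5, with 4. The median over the 32851 windows used, which did not cover every chromosome, was 52.4% and 6. On both strands, CANNTG occurred 3 times before Bmp4 and 0 times before Bmp5 and Gdf10, and in 66.2% of all windows. The Bmp6 window held it 2 times, but all 250 of its bases lie within annotated Bmp6 exons, so these matches are inside the transcript. None of the 4 windows held ATCAAAG (the T-cell factor motif, in 3.21% of all windows), TAATTA (homeodomain, 4.84%), GGCGCC (a GC-rich Smad motif, 9.59%), or TTCCCGC or TTGGCGC (E2F, 5.62%).

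**Figure D1:**
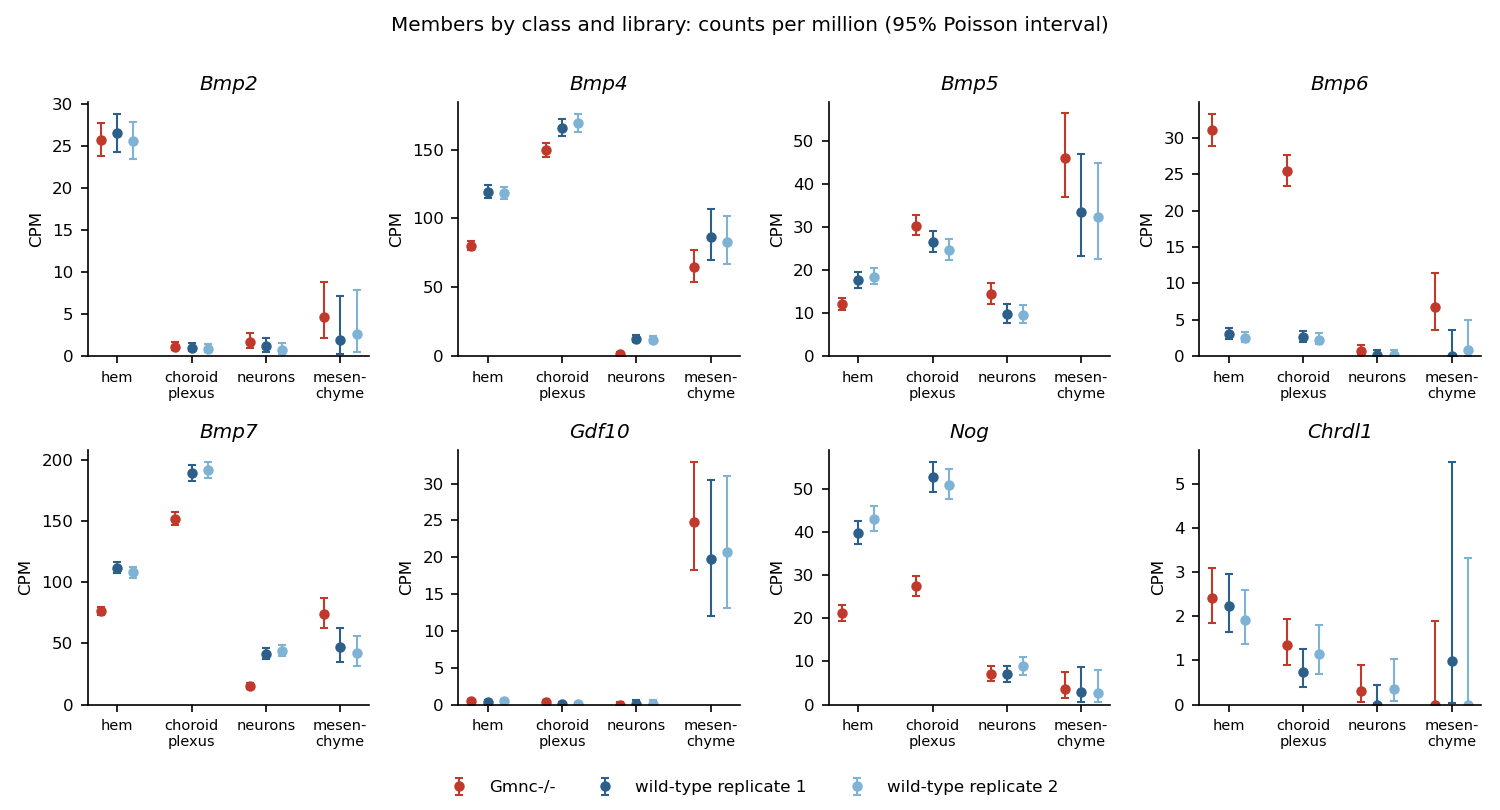
CPM (y axis from 0) of the 8 members in hem progenitors, choroid plexus cells, neurons and mesenchyme (x axis), with 1 point per library and the 95% Poisson interval as bars. Bmp6 stands at 31.0 CPM in Gmnc-/- hem progenitors, against 3.04 and 2.57 CPM in wild-type ones, and Bmp2 is near 26 CPM in hem progenitors of every library.

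Bmp6 was the 1 ligand called between genotypes in hem progenitors and in choroid plexus cells. Bmp6 encodes a ligand of the Bmp5, Bmp6 and Bmp7 subgroup. In hem progenitors it had 797 UMIs (31.0 CPM [28.9 to 33.2]) in Gmnc-/-, against 64 UMIs (3.04 CPM [2.34 to 3.88]) and 55 UMIs (2.57 CPM [1.94 to 3.34]) in the wild-type replicates, 11.1-fold higher in Gmnc-/- [9.12 to 13.5]. In choroid plexus cells it had 545 UMIs (25.4 CPM [23.3 to 27.7]) in Gmnc-/-, against 46 and 38 UMIs (2.61 and 2.31 CPM) in wild-type, 10.3-fold higher [8.18 to 13.1]. The genotypes did not overlap in either class.

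Elsewhere Bmp6 was scarce. In mesenchyme it had 13 UMIs in Gmnc-/- (6.71 CPM [3.57 to 11.48]), against 0 and 1 UMIs in wild-type, and in neurons 7 UMIs, against 2 and 2; both were under the 50-UMI minimum. The unnamed clusters gave 2.14 CPM in Gmnc-/- against 0.275 and 0.353 CPM in wild-type, 6.82-fold higher [4.76 to 10.0]. Of 18 clusters with 20 or more cells per genotype, 6 had at least 50 Bmp6 UMIs, and Bmp6 was higher in Gmnc-/- in all 6 of these. The 50 UMIs counted both genotypes together, so a cluster could enter through its Gmnc-/- UMIs alone. Cluster 8 did so, with 54 UMIs against 0 in wild-type. The count is therefore a description.

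The Bmp6 difference went with an opposite one in the neighbouring gene. On GRCm38 (GENCODE vM21), Bmp6 (ENSMUSG00000039004, chr13:38345107-38500302, plus strand) ends in Txndc5, which lies on the minus strand, and the 3′ ends share 224 bases. Txndc5 encodes a protein disulfide isomerase of the endoplasmic reticulum. It had 22.7 CPM in Gmnc-/- hem progenitors, against 45.0 and 48.1 CPM in wild-type ones, 2.05-fold lower [1.87 to 2.25], and 29.9 against 55.4 and 58.3 CPM in choroid plexus cells, 1.90-fold lower [1.74 to 2.08].

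Bmp6 and Txndc5 UMIs together gave 53.7 CPM in Gmnc-/- hem progenitors, against 48.0 and 50.6 CPM in wild-type ones. The sum in choroid plexus cells was 55.3 CPM, against 58.0 and 60.6 CPM. Mesenchyme differed, with 84.2 CPM in Gmnc-/- against 154 and 175 CPM in wild-type, since Txndc5 was 2.12-fold lower [1.75 to 2.59] there with few Bmp6 UMIs. The sources used here do not say whether reads were assigned by strand. The Bmp6 and Txndc5 counts are therefore uncertain, and a difference in assignment between the feature lists or software versions cannot be told apart from one in RNA level.

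**Figure D2:**
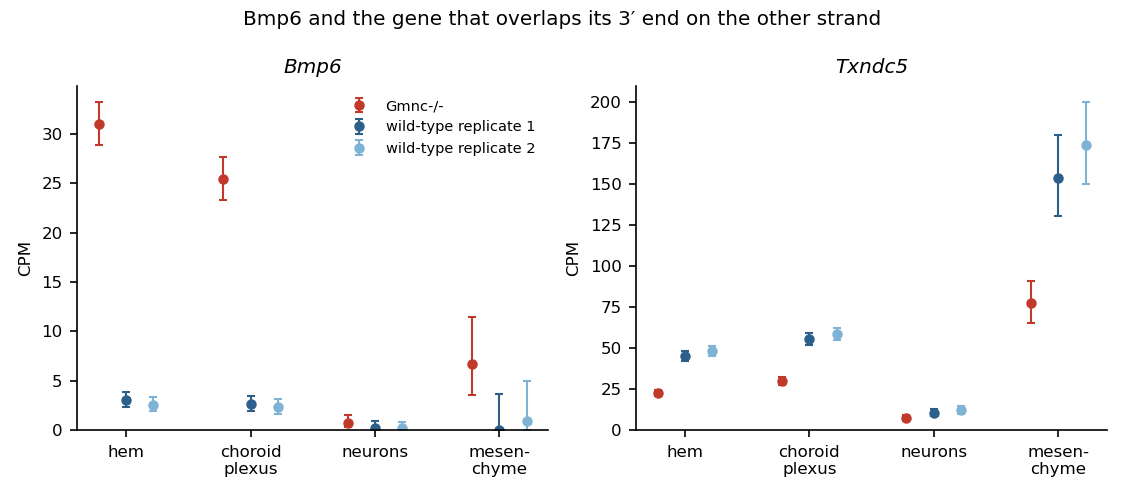
CPM (y axes from 0) of Bmp6 and of Txndc5, which overlaps its 3′ end on the other strand, by class and library, with 95% Poisson intervals. Bmp6 is high and Txndc5 low in Gmnc-/- hem progenitors and choroid plexus cells, and Txndc5 is low in Gmnc-/- mesenchyme too, at 77.5 CPM against 154 and 174 CPM.

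Across all genes, 4.1% of the 6827 measured well enough in hem progenitors were called higher in Gmnc-/- and 1.1% lower; 5 of the 8 members were measured that well, and 1 was called higher and 0 lower. In choroid plexus cells 4.58% of 7068 genes were called higher and 3.04% lower, and of 5 members 1 was called higher and 0 lower. With 5 members, 1 call is too few to read against those shares. Bmp6 met the minimum in both classes through its Gmnc-/- level alone, so it could only be called higher. For scale, 51 of the 6356 genes measured well in both classes were at least 8-fold higher in Gmnc-/- in both. That limit lies below the Bmp6 folds of 11.1 and 10.3. Genes scarce in wild-type could enter through their Gmnc-/- level, so this count is a description.

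Bmp4, a ligand of the Bmp2 and Bmp4 subgroup, was highest in choroid plexus cells and had lower values in Gmnc-/- than in wild-type in the 4 classes. In hem progenitors it had 80.4 CPM [76.9 to 83.9] in Gmnc-/-, against 119 [115 to 124] and 118 [114 to 123] CPM in wild-type, 1.48-fold lower [1.40 to 1.56]. Choroid plexus cells had 150 CPM [145 to 155], against 166 [160 to 172] and 169 [163 to 176] CPM, 1.12-fold lower [1.07 to 1.17]. The intervals did not overlap in these classes, but neither difference reached 2-fold, so Bmp4 was not called.

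Bmp4 in mesenchyme was 65.1 CPM [54.2 to 77.5] in Gmnc-/-, against 86.9 [69.7 to 107] and 82.9 [66.8 to 102] CPM in wild-type, and these intervals overlapped. In neurons it was 1.76 CPM (17 UMIs) in Gmnc-/-, against 12.53 and 12.13 CPM (104 and 103 UMIs), 7.01-fold lower [4.27 to 12.3] at a level under the 20-CPM minimum. The intermediate progenitors, which express Eomes and Neurog1 and lie between progenitor and neuron, had 6.98 CPM in Gmnc-/-, against 20.3 CPM as the wild-type mean, 2.91-fold lower [2.14 to 4.05]. Among the 13 clusters with at least 50 Bmp4 UMIs and at least 20 cells of each genotype, the interval of the ratio lay below 1 in 13, with Bmp4 1.10- to 16.5-fold lower in Gmnc-/-. The largest fold came from cluster 16, with 2 Gmnc-/- and 95 wild-type UMIs [4.43 to 138]. Under the UMI minimum, clusters 6, 7 and 19 had ratios above 1 (1.06, 1.10 and 2.55). Cluster 12 had 0.939, and cluster 24 had 2 UMIs against 0. The intervals of these clusters all held 1.

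In the wild-type, Bmp4 followed the order choroid plexus cells, hem progenitors, mesenchyme and neurons, with no overlap between neighbours. It was 1.41-fold higher in choroid plexus cells than in hem progenitors [1.36 to 1.47], 1.40-fold lower in mesenchyme than in hem progenitors [1.21 to 1.64], and 9.64-fold lower in neurons than in hem progenitors [8.38 to 11.1]. The neuron difference alone was called. In Gmnc-/- the order was the same, with overlapping intervals for hem progenitors and mesenchyme. Bmp4 (ENSMUSG00000021835, chr14:46383520-46390669) overlaps Gm15217 and Gm15222 on the other strand, and Gm15222 had 7.503 CPM in Gmnc-/- hem progenitors against 5.693 and 4.997 CPM in wild-type ones, so its counts carry the same doubt about strand.

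**Figure D3:**
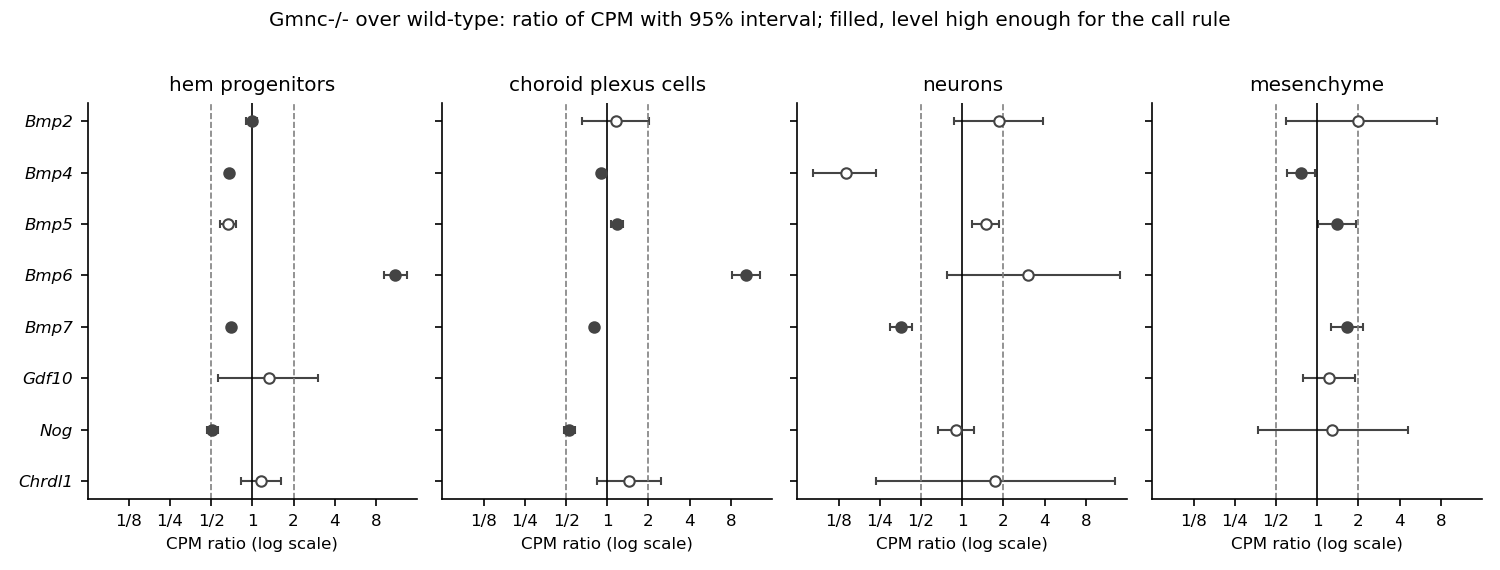
CPM ratio of Gmnc-/- over wild-type (x axis, log scale) for each member in 4 classes, with 95% intervals; filled points reached 50 UMIs and 20 CPM on the side with more, dashed lines mark 2-fold, and members with under 3 UMIs on a side are not drawn. Bmp6 lies past 8 in hem progenitors and choroid plexus cells, Nog lies near the 2-fold line below 1 in the same classes, and Bmp7 lies past it in neurons.

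Bmp7, a ligand of the same subgroup as Bmp6, followed Bmp4 in the neural tissue but not in mesenchyme. In hem progenitors it had 76.6 CPM [73.3 to 80.1] in Gmnc-/-, against 112 [108 to 117] and 108 [104 to 113] CPM in wild-type, 1.44-fold lower [1.36 to 1.52]. Choroid plexus cells had 152 CPM [147 to 157], against 189 [183 to 196] and 192 [185 to 199] CPM, 1.25-fold lower [1.20 to 1.31]. Neither reached 2-fold.

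Mesenchymal Bmp7 went the other way, with 73.8 CPM [62.2 to 87.0] in Gmnc-/-, against 47.4 [34.9 to 62.8] and 42.3 [31.1 to 56.3] CPM in wild-type, 1.65-fold higher [1.26 to 2.16]. Its interval met that of wild-type replicate 1. The summed choroid plexus markers in mesenchyme moved with it, at 1112 CPM in Gmnc-/- against 433 and 113 CPM in wild-type, and their part was not tested. No member was called in mesenchyme, where 3 of 8 were measured well enough and where 3.4% of 6233 genes were called higher and 2.23% lower.

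In wild-type cells Bmp7 was highest in choroid plexus cells, 1.73-fold above hem progenitors [1.67 to 1.80], and lowest in neurons and mesenchyme, whose intervals overlapped. It was 2.46-fold lower in mesenchyme than in hem progenitors [2.01 to 3.05] and 2.56-fold lower in neurons than in hem progenitors [2.37 to 2.78], and both passed the rule. Bmp7 lies at chr2:172868012-172940321 on the minus strand (ENSMUSG00000008999), with no overlapping feature in both feature lists.

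In neurons Bmp7 was the 1 member called between genotypes: 15.3 CPM [12.9 to 18.0] in Gmnc-/-, against 41.7 [37.4 to 46.3] and 44.2 [39.8 to 48.9] CPM in wild-type, 2.81-fold lower [2.35 to 3.37]. Of 6678 genes measured well in neurons, 6.38% were called lower in Gmnc-/- and 4.21% higher, and Bmp7 was the 1 member of 8 measured that well. Bmp7 met the minimum through its wild-type level alone, so it could only be called lower. The clusters that make up the class differed in level. Their part in the difference, and whether a cluster holds like neurons in both genotypes, was not tested. Within the Stmn2 and Calb2 cluster, Bmp7 had 15.3 CPM in Gmnc-/- and 15.9 CPM in wild-type (ratio 0.961 [0.734 to 1.27]), and Bmp4 had 1.77 and 1.61 CPM. The Lhx1 and Trp73 cluster, with 9 Gmnc-/- cells, had 55.8 and 57.1 CPM of Bmp7 and 18.0 and 17.4 CPM of Bmp4 in the wild-type replicates. With only those clusters that held 20 or more cells per genotype, 0 members were called in neurons, and also 0 with a finer clustering (resolution 2).

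Bmp5, another ligand of that subgroup, showed opposite directions in different classes. In hem progenitors it had 12.1 CPM [10.8 to 13.5] in Gmnc-/-, against 17.7 [15.95 to 19.59] and 18.5 [16.7 to 20.4] CPM in wild-type, 1.502-fold lower [1.31 to 1.72], under the 20-CPM minimum. Choroid plexus cells had 30.4 CPM [28.1 to 32.8], against 26.6 [24.2 to 29.1] and 24.8 [22.4 to 27.3] CPM, 1.18-fold higher [1.07 to 1.31], with an interval that met that of wild-type replicate 1. In mesenchyme, its highest class, it had 46.0 CPM [36.9 to 56.6], against 33.6 [23.2 to 46.9] and 32.4 [22.7 to 44.9] CPM, and the intervals overlapped.

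In neurons Bmp5 had 14.5 CPM in Gmnc-/- against 9.88 and 9.66 CPM in wild-type, 1.48-fold higher [1.18 to 1.87], at a level too low for a call. Within the Stmn2 and Calb2 cluster it had 14.5 CPM (139 UMIs) in Gmnc-/- and 1.79 CPM (10 UMIs) in wild-type, 8.09-fold higher [4.27 to 17.2]. Wild-type Bmp5 neurons were instead in the Lhx1 and Trp73 cluster, at 13.3 and 14.2 CPM. Wild-type Bmp5 was 1.82-fold higher in mesenchyme [1.41 to 2.33] and 1.42-fold higher in choroid plexus cells [1.29 to 1.57] than in hem progenitors. Bmp5 (ENSMUSG00000032179, chr9:75775364-75900310, plus strand) overlaps the antisense gene Gm26903, which had 5.69 CPM in Gmnc-/- choroid plexus cells, against 0.681 and 0.791 CPM in wild-type ones, so its counts are uncertain as well.

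Bmp2, the close relative of Bmp4, was highest in hem progenitors among the 4 classes, with near-equal levels in both genotypes when their clusters were summed. It had 25.7 CPM [23.8 to 27.7] in Gmnc-/- hem progenitors, against 26.5 [24.3 to 28.8] and 25.6 [23.5 to 27.8] CPM in wild-type ones, a ratio of 0.987 [0.895 to 1.09]. In the wild-type it was 26.9-fold lower in choroid plexus cells [19.0 to 39.3], 27.3-fold lower in neurons [16.7 to 48.0] and 11.1-fold lower in mesenchyme [4.72 to 34.1] than in hem progenitors. All 3 passed the rule. Bmp2 lies at chr2:133552159-133562885 on the plus strand (ENSMUSG00000027358). Choroid plexus cells, which exceeded the hem in Bmp4 and Bmp7, thus had 1.02 and 0.912 CPM of Bmp2 in the wild-type replicates, and 1.12 CPM in Gmnc-/-.

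Bmp2 was not restricted to cells named as hem. Cluster 13, an unnamed progenitor cluster led by Dlk1, Lhx5 and Fezf1, had 65.7 CPM of Bmp2 in 166 Gmnc-/- cells, against 33.6 and 33.0 CPM in 402 and 337 wild-type cells, 1.97-fold higher [1.60 to 2.41]. The same cluster had 76.6 CPM of Bmp4 in Gmnc-/-, against 156 and 144 CPM in wild-type, 1.96-fold lower [1.66 to 2.33]. Both ligands were thus near their hem levels or above, and they differed between genotypes in opposite directions.

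Gdf10, also called Bmp3b, was a mesenchymal member. It had 24.8 CPM [18.3 to 32.9] in Gmnc-/- mesenchyme, against 19.7 [12.1 to 30.5] and 20.7 [13.1 to 31.1] CPM in wild-type, a ratio of 1.22 [0.794 to 1.89]. In hem progenitors it had 12 UMIs in Gmnc-/- and 6 and 9 UMIs in wild-type, and in wild-type mesenchyme it was 57.4-fold higher than in hem progenitors [31.2 to 111]. With 43 UMIs in wild-type mesenchyme it stayed under the 50-UMI minimum, so it was not called. Its other site was cluster 13, with 12.4 CPM in Gmnc-/- and 6.36 and 8.78 CPM in wild-type. Gdf10 lies at chr14:33923587-33937983 (ENSMUSG00000021943).

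Nog, whose product binds Bmp2, Bmp4 and Bmp7 outside the cell, had lower values in Gmnc-/- hem progenitors and choroid plexus cells, just inside the 2-fold limit. In hem progenitors it had 21.2 CPM [19.5 to 23.0] in Gmnc-/-, against 39.9 [37.2 to 42.6] and 43.1 [40.3 to 45.9] CPM in wild-type, 1.96-fold lower [1.78 to 2.16]. Without wild-type replicate 1 it was called lower, so that 2 members were called in place of 1. Choroid plexus cells had 27.4 CPM [25.2 to 29.7], against 52.6 [49.3 to 56.1] and 51.0 [47.6 to 54.5] CPM, 1.89-fold lower [1.72 to 2.08]. The genotypes did not overlap in either class.

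Lower Nog values were also found outside these classes. Unnamed clusters had 16.3 CPM in Gmnc-/-, against 25.0 and 25.3 CPM in wild-type, 1.55-fold lower [1.45 to 1.65]. Of 13 clusters with at least 50 Nog UMIs and 20 cells of each genotype, the interval of the ratio lay below 1 in 12. The highest ratio among the 13 was 0.732. Intermediate progenitors had 5.27 CPM in Gmnc-/-, against 12.4 CPM as the wild-type mean, 2.36-fold lower [1.64 to 3.49] at a level under the 20-CPM minimum. Neurons as a whole had overlapping intervals, at 7.14 CPM [5.55 to 9.03] against 6.99 and 8.84 CPM. Within the Stmn2 and Calb2 cluster Nog had 7.17 CPM in Gmnc-/- and 12.9 CPM in wild-type, 1.79-fold lower [1.27 to 2.53]. Mesenchyme had 7 UMIs, against 3 and 3. Nog (ENSMUSG00000048616, chr11:89300638-89302332, minus strand) spans 1695 bases and has no overlapping feature in both lists.

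In wild-type cells Nog was highest where Bmp4 and Bmp7 were. It was 1.25-fold higher in choroid plexus cells than in hem progenitors [1.17 to 1.34], 5.24-fold lower in neurons than in hem progenitors [4.39 to 6.29], and 14.7-fold lower in mesenchyme than in hem progenitors [6.73 to 40.04]. The last 2 were called. Mesenchyme thus had 86.9 and 82.9 CPM of Bmp4 but 2.96 and 2.70 CPM of Nog in the wild-type replicates.

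Chrdl1 was scarce in every class. It had 2.41 CPM [1.85 to 3.09] in Gmnc-/- hem progenitors, against 2.23 and 1.92 CPM in wild-type ones, and 1.35 against 0.737 and 1.16 CPM in choroid plexus cells. In neurons and mesenchyme it had at most 3 UMIs in any library. Its highest level was 7.13 CPM [4.57 to 10.6] in the rostral or septal progenitors (Fgf8, Fgf17), a cluster of 313 Gmnc-/- cells and 0 and 1 wild-type cells. Chrdl1 lies on chromosome X (ENSMUSG00000031283, chrX:143285674-143394262, minus strand).

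Counted by class in the wild-type, 5 members were measured well enough in choroid plexus cells against hem progenitors, and 1 was called lower and 0 higher, where 3.45% of 6907 genes were called lower and 5.82% higher. In mesenchyme against hem progenitors, 3 of 5 members were called lower (Bmp2, Bmp7 and Nog) and 0 higher, beside 9.28% lower and 10.9% higher of 6996 genes. In neurons against hem progenitors, 4 of 4 were called lower (Bmp2, Bmp4, Bmp7 and Nog) and 0 higher, beside 11.9% lower and 11.4% higher of 7128 genes. Members that met the minimum through their hem level alone had to be lower in the other class, so these counts are a description. With mitochondrial UMIs held to 5%, mesenchyme lost the Bmp7 call.

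**Figure D4:**
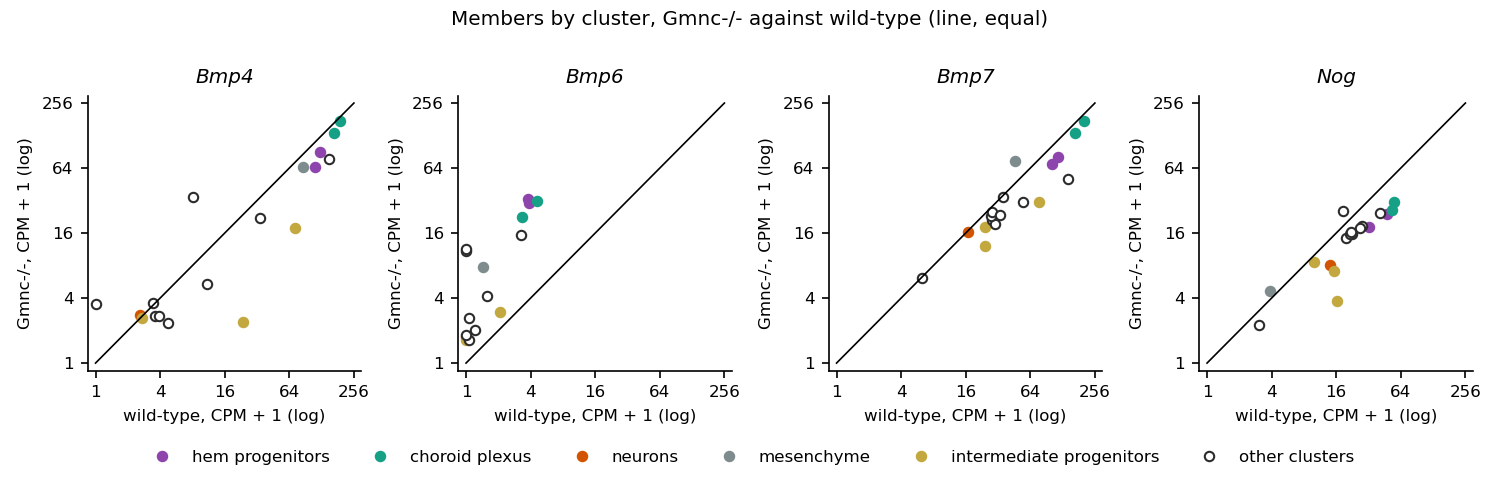
CPM + 1 of Bmp4, Bmp6, Bmp7 and Nog in the 18 clusters with 20 or more cells per genotype, in Gmnc-/- (y axis, log scale) against the mean of the wild-type libraries (x axis, log scale); the line marks equal levels. Bmp6 lies above the line in hem progenitor and choroid plexus clusters and Nog below it, and Bmp7 in mesenchyme lies above it at 73.8 CPM against 44.9 CPM.

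Within the hem and choroid plexus clusters, Bmp6 and Nog kept the direction of their class, and Bmp2 did not. Bmp6 was 11.54-fold higher [9.07 to 14.9] in cluster 2 and 10.2-fold higher [7.33 to 14.4] in cluster 4 of the hem progenitors. In the choroid plexus clusters present in both genotypes it was 9.23-fold [6.28 to 14.0] and 8.72-fold [6.42 to 12.1] higher. Nog was 2.02-fold [1.80 to 2.26] and 1.85-fold [1.53 to 2.24] lower in the hem clusters. Bmp2 had 24.9 CPM in Gmnc-/- against 22.1 CPM in wild-type in cluster 2, a ratio of 1.13 [0.991 to 1.28], and 27.4 against 33.3 CPM in cluster 4, a ratio of 0.823 [0.702 to 0.964]. The near-equal Bmp2 level of the whole class thus sums clusters with ratios on either side of 1. Bmp4 differed more in cluster 4, at 63.9 CPM in Gmnc-/- against 110 CPM in wild-type, 1.72-fold lower [1.56 to 1.90], than in cluster 2, at 88.6 against 124 CPM, 1.40-fold lower [1.31 to 1.49]. The multiciliated cluster, present in the wild-type alone, had 136 and 132 CPM of Bmp4, 220 and 208 CPM of Bmp7, 1.09 and 0.488 CPM of Bmp6, and 44.1 and 46.9 CPM of Nog.

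Wild-type cells were also split by reporter. Wnt3aCre selects cells by lineage as well, so stage and lineage cannot be told apart in this split. Cells with tdTomato UMIs alone (E12.5) numbered 357 and 292 in wild-type hem progenitors, and cells with YFP UMIs alone (E11.5) numbered 1040 and 928. Another 65 and 56 had UMIs of both reporters, and 134 and 150 had neither. Both sets were left out of the split. Whether E12.5 cells without tdTomato stood in the YFP-only group through free YFP RNA was not tested. Against E12.5 wild-type hem progenitors, Bmp6 remained apart, at 31.0 CPM in Gmnc-/- against 3.55 and 3.90 CPM, and so did Nog, at 21.2 CPM against 38.3 [33.3 to 43.9] and 38.6 [33.3 to 44.5] CPM. Bmp7 had 76.6 CPM, against 121 and 112 CPM. Bmp4 had 80.4 CPM [76.9 to 83.9], against 111 [102 to 120] and 92.8 [84.4 to 102] CPM, while the E11.5 cells had 123 and 131 CPM.

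In choroid plexus cells the reporter groups differed for Nog, at 39.7 and 40.4 CPM in tdTomato-only (E12.5) cells, against 59.8 and 54.5 CPM in YFP-only (E11.5) cells. Gmnc-/- choroid plexus cells had 27.4 CPM. In neurons Bmp5 had 17.5 and 15.1 CPM in E12.5 wild-type cells, against 7.93 and 9.05 CPM in E11.5 ones, with overlapping intervals (19 and 16 UMIs at E12.5). The log2 fold of Bmp5 in neurons was 0.52 against all wild-type cells and -0.16 against the tdTomato-only ones. The part of stage and of lineage in this change was not tested. Bmp7 in neurons had 57.1 and 52.9 CPM in E12.5 cells, against 38.1 and 42.6 CPM in E11.5 ones, so the Gmnc-/- level of 15.3 CPM was below both.

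**Figure D5:**
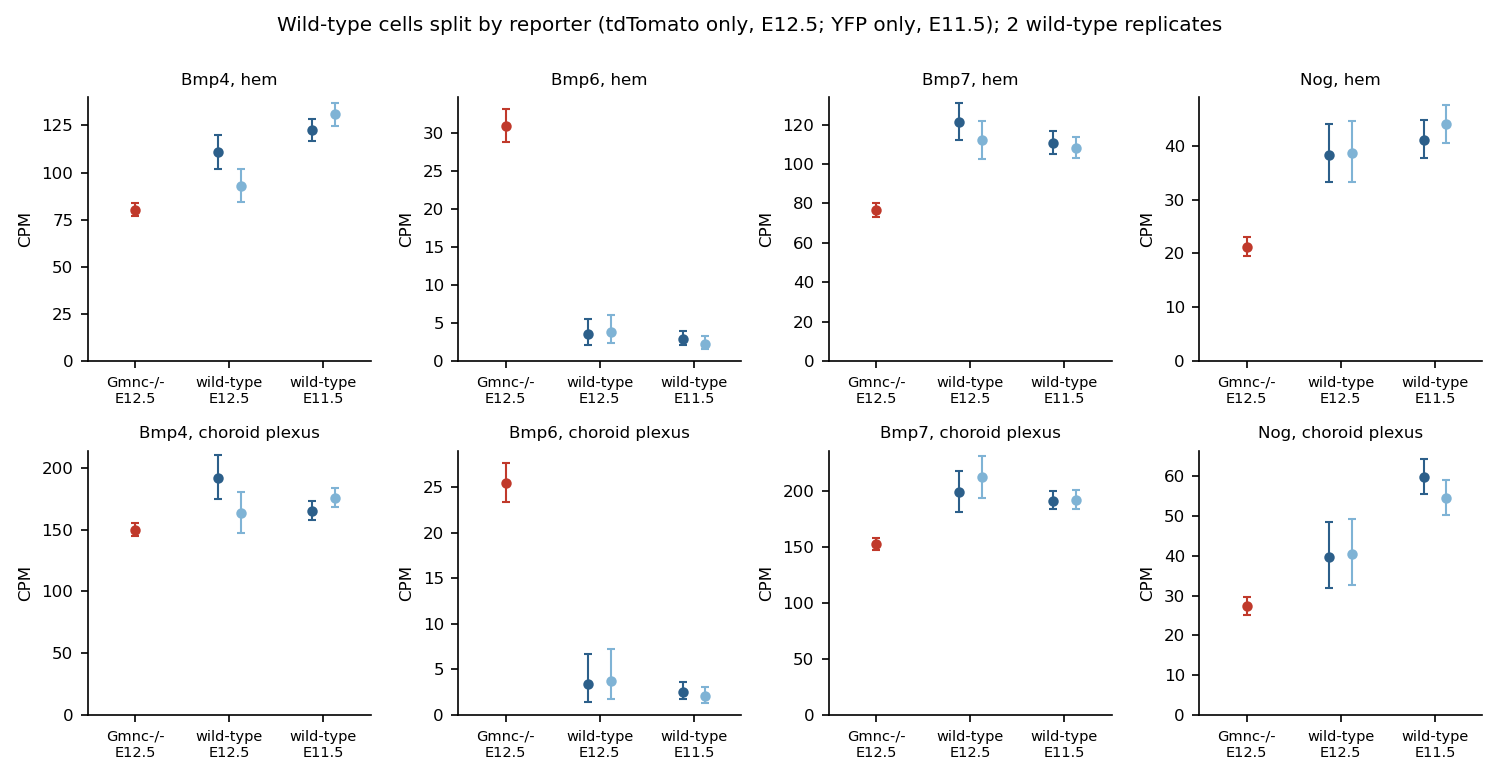
CPM (y axes from 0, 95% Poisson intervals) of Bmp4, Bmp6, Bmp7 and Nog in hem progenitors (top) and choroid plexus cells (bottom), for Gmnc-/- cells at E12.5 and for wild-type cells with tdTomato alone (E12.5) or YFP alone (E11.5), with 1 point per wild-type replicate. Nog in the choroid plexus stands at 27.4 CPM in Gmnc-/-, 39.7 and 40.4 CPM in E12.5 wild-type and 59.8 and 54.5 CPM in E11.5 wild-type cells.

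Shares of cells were compared after thinning each cell to 4000 UMIs. At that depth, 25.1% [23.1 to 27.3] of Gmnc-/- hem progenitors had a Bmp4 UMI, against 35.7% [33.3 to 38.1] and 33.6% [31.2 to 36.2] of wild-type ones (unthinned, 50.3% against 66.7% and 69.1%, at median depths of 8768, 10859.5 and 12369.5 UMIs). Bmp6 was found in 10.7% [9.24 to 12.2], against 1.01% and 1.29% (unthinned, 29.0% against 3.89% and 3.65%). Nog was found in 6.84% [5.69 to 8.13], against 14.6% and 16.3% (unthinned, 21.5% against 36.5% and 41.2%). The thinned shares leave out 86 Gmnc-/- and 9 and 26 wild-type hem progenitors that were shallower.

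Erythroid cells, which should lack these genes, show free RNA: 0.995% of Gmnc-/- erythroid cells had a Bmp4 UMI at 4000 UMIs, against 0.524% and 0%, with 2.99% against 0% and 0% for Nog, at median depths of 15046, 15665 and 17491 UMIs. Bmp6 was found in 0 of 201 Gmnc-/- erythroid cells, which allows a share of up to 1.49% (3 counts of the cells) and is too few cells to place a lower share. In the larger unnamed clusters, Bmp6 was found in 0.136% [0.0442 to 0.317] and 0.127% [0.0347 to 0.325] of wild-type cells, below the 1.01% [0.577 to 1.63] and 1.29% [0.764 to 2.02] of wild-type hem progenitors. The Bmp4 shares in hem progenitors were above those in erythroid cells, while the interval of the Gmnc-/- Nog share in hem progenitors overlapped that in Gmnc-/- erythroid cells [1.10 to 6.38].

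Joint presence of the genes in single cells was counted at the same depth. At least 1 of the 6 ligands was found in 56.3% of Gmnc-/- hem progenitors, against 64.7% and 62.2% of wild-type ones, and at least 2 in 15.8%, against 18.4% and 18.5%. Of Gmnc-/- hem progenitors with a Bmp4 UMI, 23.5% [19.6 to 27.8] also had a Bmp7 UMI, and of those without, 24.8% [22.4 to 27.2]. The wild-type replicates gave 32.2% and 37.2% with a Bmp4 UMI and 33.8% and 32.3% without, with overlapping intervals in each library. Nog was found in 7.37% [5.10 to 10.3] of Gmnc-/- hem progenitors with a Bmp4 UMI and in 6.66% [5.36 to 8.16] of those without. In hem progenitors and choroid plexus cells the intervals for Bmp7 and for Nog overlapped between cells with and without a Bmp4 UMI in each library. In the unnamed clusters of wild-type replicate 1, Nog was found in 15.7% [11.3 to 21.1] of cells with a Bmp4 UMI and 8.13% [7.24 to 9.09] of those without, while the intervals overlapped in replicate 2 and in Gmnc-/-. The unnamed clusters hold several kinds of cells, which the counts do not separate.

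Across the 21 wild-type clusters with at least 50 cells, Bmp4 and Bmp5 had the most alike pattern (Pearson r of log2(CPM + 1) = 0.949), then Nog and Bmp7 (0.856) and Bmp5 and Bmp7 (0.849). Bmp2 was least like the other ligands with a clear level, with 0.417 against Bmp4 and 0.293 against Bmp7. Of all genes, Id1 (0.975), Ptn (0.959) and Zic4 (0.959) were most like Bmp4, and Zic4 (0.965), Ptn (0.956) and Heph (0.953) were most like Bmp5. Ext1 (0.965) led for Bmp7, Dusp28 (0.956) for Nog and Fabp7 (0.837) for Bmp2. These clusters share libraries and depth, so the values are descriptions. Bmp6, Gdf10 and Chrdl1 did not reach the minimum level.

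The rest of the Bmp pathway was counted by list. Most other genes were too low for a call. Of the 15 other ligands, 1, 2, 1 and 0 were measured well in hem progenitors, choroid plexus cells, neurons and mesenchyme, and 0 of these were called between genotypes. Of the 6 processing enzymes 2, 3, 0 and 1 were measured well, and of the 4 Smad transducers 3 in each class, with 0 called. Of the 17 other secreted antagonists 3, 3, 3 and 4 were measured well, and 0, 0, 1 and 1 of these were called. These counts are too small to set against the shares of all genes called. Of 13 receptors and coreceptors in both feature lists, 4 were measured well in hem progenitors and 0 called, and 5 were in neurons and 1 called. That 1 was Rgmb, a membrane-bound Bmp coreceptor, at 224 CPM in Gmnc-/- neurons, against 90.2 and 99.7 CPM in wild-type ones, 2.36-fold higher [2.21 to 2.52].

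Bambi, a pseudoreceptor that lacks the kinase domain and dampens the signal, was lower in Gmnc-/- in 3 classes. It had 15.6 CPM in Gmnc-/- hem progenitors, against 32.6 and 33.8 CPM in wild-type ones, 2.13-fold lower [1.91 to 2.39]. In choroid plexus cells it had 26.9 CPM, against 75.1 and 78.1 CPM, 2.85-fold lower [2.60 to 3.12], and in mesenchyme 13.4 CPM, against 37.5 and 44.1 CPM, 3.05-fold lower [1.95 to 4.93]. It was the 1 intracellular inhibitor called, of 5 measured well in hem progenitors, 6 in choroid plexus cells and 5 in mesenchyme.

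Of 8 target genes, 7 were measured well in hem progenitors, and 1 was called higher and 0 lower, with a median log2 fold of -0.36 against -0.03 over all genes. Of all genes there, 4.1% were called higher and 1.1% lower, and 1 call among 7 targets is too few to read against those shares. The called gene was Id4, which encodes an inhibitor of basic helix-loop-helix factors, at 122 CPM in Gmnc-/- hem progenitors, against 50.3 and 52.4 CPM in wild-type ones, 2.37-fold higher [2.25 to 2.51]. Id1, of the same family, was 611 CPM in Gmnc-/- hem progenitors, against 789 and 780 CPM. Msx2 was 1.97-fold lower [1.86 to 2.09] there and Msx1 1.665-fold higher [1.58 to 1.75], and neither was called. In choroid plexus cells 6 targets were measured well and 0 called, with a median of -0.16 against -0.09. Msx2 was 1.83-fold lower [1.70 to 1.97] in these cells and Msx1 1.20-fold higher [1.17 to 1.24].

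In neurons Id1 was lower and Id4 higher in Gmnc-/-, of 5 targets measured well. Id1 had 23.1 CPM, against 146 and 135 CPM, 6.09-fold lower [5.31 to 7.02], and Id4 had 63.3 CPM, against 25.7 and 25.1 CPM, 2.495-fold higher [2.20 to 2.83]. The antagonist Fst (follistatin) was also higher, at 57.6 CPM against 19.2 and 15.0 CPM, 3.38-fold [2.93 to 3.92]. The neuron clusters were of unequal size here as for Bmp7, and their part in these differences was not tested.

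In mesenchyme 2 of 6 targets measured well were lower in Gmnc-/- and 0 higher, with a median log2 fold of -0.86 against -0.08 over all genes; of all genes, 2.23% were called lower. The 7 pericyte markers summed to 90.9 CPM in Gmnc-/- mesenchyme, against 178 and 155 CPM in wild-type, with 1 of them at 0, against 2 and 2. The 13 choroid plexus markers summed to 1112 against 433 and 113 CPM, with 2 at 0, against 3 and 5. The part of these sums in the target differences was not tested. Id1 had 71.3 CPM in Gmnc-/-, against 170 and 144 CPM in wild-type, 2.19-fold lower [1.79 to 2.70], and Msx2, a homeobox gene, had 11.9 CPM, against 39.5 and 47.7 CPM, 3.69-fold lower [2.32 to 6.10]. Sostdc1, an antagonist of Bmp and Wnt signals, had 82.6 CPM, against 176 and 216 CPM, 2.38-fold lower [1.98 to 2.88]. It went the other way in choroid plexus cells, at 507 CPM in Gmnc-/- against a wild-type mean of 257 CPM. That was 1.97-fold higher [1.92 to 2.03] and was not called. In hem progenitors Sostdc1 was 1.68-fold higher [1.42 to 1.98] at a level under the 20-CPM minimum.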

How the data were processed

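Single-cell 3′ libraries of the hem region (1 Gmnc-/-, 2 wild-type) were deposited by the authors as raw UMI count matrices. Cell Ranger 3.1.0 and build mm10 are named in the submitters' processing notes, while, per the file headers, version 6.0.0 made the Gmnc-/- matrix and 3.1.0 the wild-type ones; the annotation release and the counting strand are not given in the sources used here. Features were joined by Ensembl ID. Barcodes with at least 1000 genes, at least 2000 UMIs and at most 10% mitochondrial UMIs were kept, and cells with the highest score against simulated doublets were removed at 0.8% per 1000 cells (2488 in Gmnc-/-, 941 and 678 in wild-type). Cells were clustered on 2000 variable genes, none of the Bmp lists, each scaled within its genotype, with 40 components, 20 neighbours and resolution 1 (Leiden, leidenalg 0.10.2, igraph 0.11.9, numpy 2.4.6, scipy 1.17.1, pandas 2.3.3, Python 3.11.15). The scaling was meant to join like cells across genotypes. Erythroid cells stayed apart, with 207 Gmnc-/- cells against 3 and 3 wild-type ones in cluster 20. Whether the other clusters hold like cells in both genotypes was not tested. UMIs were summed per class and library; levels are CPM (UMIs scaled to a class total of 1e6) with exact Poisson intervals, shares have exact Clopper-Pearson intervals, and intervals cover counting error only. The call rule was checked on simulated counts with Poisson error alone. That check does not cover differences between suspensions, stages or software versions. The wild-type libraries were averaged and counted as 1 sample, so no test was made between genotypes. Log2 folds use log2(CPM + 1). The members and lists were chosen with earlier results of these data known. Other pathway genes were named where called between genotypes, at most 3 per list and class, and for each member with enough UMIs the 3 genes with the most alike pattern over wild-type clusters were taken. Hfe2 and 2900040C04Rik had no match in the shared features. Alternatives changed the scaling, the minimum, the fold, the pseudocount, the cell filters, the doublet removal, the clustering, the wild-type cells by reporter and the libraries.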

Additional observations from a re-analysis of the deposited data

Results flagged for a closer look

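Genotype differences pointed in opposite directions in different classes for Bmp5 and Bmp7, against both wild-type libraries in each class; these differences were not tested. For Bmp5 the log2 fold of Gmnc-/- over wild-type was 0.78 greater in choroid plexus cells than in hem progenitors, 1.07 greater in neurons than in hem progenitors and 1.01 greater in mesenchyme than in hem progenitors. Against wild-type cells with tdTomato alone (E12.5), the Bmp5 fold in neurons was -0.16, so its opposite direction there was not kept. For Bmp7 the log2 fold in mesenchyme exceeded that in hem progenitors by 1.22. It exceeded that in choroid plexus cells by 1.03 and that in neurons by 2.14. Under the alternatives the Bmp7 fold lay between -1.78 and -0.0538 in neurons and between 0.304 and 1.99 in mesenchyme. The summed choroid plexus markers were also higher in Gmnc-/- mesenchyme, and their part was not tested.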

How the results depend on the processing

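No paired analysis was possible because each genotype was 1 suspension and no result comes from a test. Of the single-gene values under the alternatives, 845 moved by less than counting error and 115 by more, and no called value changed sign. In hem progenitors the count of members called between genotypes ran between 1 and 2 when a wild-type library was left out, and was 2 (Bmp6 and Nog) with a 1.5-fold limit; in choroid plexus cells that limit also gave 2. In neurons the count was 2 with no minimum of UMIs or CPM, and 0 at resolution 2 and with clusters of at least 20 cells of each genotype. In the wild-type, choroid plexus cells against hem progenitors gave 2 with the 1.5-fold limit, mesenchyme gave 2 with at most 5% mitochondrial UMIs, and neurons gave 6 with no minimum. The share of wild-type hem progenitors with a UMI of a member was 69.8%, between 69.1% and 70.5% with a library left out, 93.8% unthinned and 45.5% at 2000 UMIs; the cause is the depth kept. The log2 fold of Bmp6 in hem progenitors lay between 2.21 and 3.42 under the alternatives. Median-ratio and TMM scaling moved the median of all genes in neurons by 0.147 and 0.12 (log2). Leaving out cells with a barcode of another library was chosen after seeing the data. One suspension per genotype, mixed wild-type stages and few mesenchymal cells limit every comparison.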
